A study of Homo sapiens with 18 samples.

Results

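Collagens are triple-helical proteins of the extracellular matrix. Their chains are hydroxylated and folded in the endoplasmic reticulum, and the secreted molecules build fibrils, basement membrane networks, beaded filaments and anchoring fibrils, while a few types stay in the plasma membrane. They are made mainly by fibroblasts and other connective tissue cells. In blood cells, of which the K562 chronic myelogenous leukemia line is a malignant relative, most collagens are known to be low.

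The collagen genes were taken as every gene whose symbol is COL, a number, A and a number. Of 28395 genes, 44 had such a symbol, and 29 of them had 3 or more libraries with a value of 10 or higher among the 6 libraries of a comparison. They were analysed in V-K562 cells, which carry the empty vector, in B-K562 cells, which express wtBASP1, and in G-K562 cells, which express BASP1-G2A, a mutant that cannot be myristoylated. BASP1 is a transcriptional corepressor that works with WT1, and K562 cells make WT1 but next to no BASP1. All 3 lines are stably transfected K562 cells kept in G-418, each selected as 1 pool, so the BASP1 form and the history of a pool cannot be told apart. Each line gave 3 culture replicates for RNA-seq and 3 for ATAC-seq, so p-values measure the spread between cultures of 1 pool. The BASP1 gene (Entrez 10409) was at 7, 5 and 7 in the V-K562 libraries, at 6849, 6618 and 6189 in those of B-K562 and at 9323, 12538 and 8124 in those of G-K562.

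Values are read counts per gene divided by a size factor per library and rounded, and their totals lay between 32074895 and 33229588 per library. Where the depth could be read from the values, 1 unit stood for about 1 read, so values under 10 carry a large counting error. V-K562 values are given as in the B-K562 table, and those in the G-K562 table were 1.0153 to 1.0203 times as high. A gene was said to rise or fall at an adjusted p of at most 0.05 (limma-trend on log2(value + 1), Benjamini-Hochberg over all genes tested) and at least a 2-fold change. The fold changes are on this scale and understate the change of genes with low values. The K562 identity held in every library, since all 11 erythroleukemia markers were at 10 or more, with sums from 124752 to 140022 for V-K562, from 199282 to 205649 for B-K562 and from 58436 to 63732 for G-K562. Of 18 fibroblast markers, FAP and TWIST2 were at 0 in all 9 libraries, and the list summed to between 463 and 506 for V-K562, 243 and 450 for B-K562 and 472 and 494 for G-K562. The sums of 8 epithelial markers were 36447 to 38089, 25300 to 25798 and 42060 to 43418, and of 7 endothelial markers 461 to 506, 328 to 402 and 551 to 659, in the same order of lines. These marker levels moved with the lines, and their part in the collagen results was not tested.

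The 15 collagen genes that did not pass are COL2A1, COL4A1, COL4A3, COL4A4, COL4A6, COL8A1, COL10A1, COL11A1, COL12A1, COL13A1, COL17A1, COL19A1, COL20A1, COL22A1 and COL27A1. Of them, 9 had no library at 10 or above, 6 had 1 or 2 such libraries, and COL13A1 was at 0 in all 9. Just outside the limit lay COL4A1 and COL4A6, each with 2 libraries at 10 or above in the B-K562 table and a next value of 9, and just inside it COL24A1, which passed in the G-K562 table and over all 9 libraries but not in the B-K562 table, where it was not tested.

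The sequences below show where the collagen results meet the chromatin data. The first 4 are promoters, 250 bases before to 50 after a transcription start, of a gene that rose in G-K562 (COL15A1), one that fell (COL21A1), one whose start became more accessible without a rise (COL23A1) and one with a large change but no ATAC-seq peak at its start (COL6A3). They are from RefSeq on GRCh38.p14, where 21 of the 29 genes had an entry. Capitals mark matches on either strand to 5 motifs. GGGCGG is known as the GC box. GCGNGGGCG is a core shared by WT1 and EGR1 sites and can overlap the former. AGATAA is bound by the erythroid factor GATA1. TGANTCA is the site of AP-1. TATAAA is the core promoter motif called the TATA box.
COL15A1, chr9:98943657-98943956, plus strand: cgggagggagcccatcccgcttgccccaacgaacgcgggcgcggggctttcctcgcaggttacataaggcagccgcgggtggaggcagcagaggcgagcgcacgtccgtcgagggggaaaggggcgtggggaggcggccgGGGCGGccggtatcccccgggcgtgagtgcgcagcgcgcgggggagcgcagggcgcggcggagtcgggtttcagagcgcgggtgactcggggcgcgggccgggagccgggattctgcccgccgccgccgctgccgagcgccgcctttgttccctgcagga
COL21A1, chr6:56394079-56394378, minus strand: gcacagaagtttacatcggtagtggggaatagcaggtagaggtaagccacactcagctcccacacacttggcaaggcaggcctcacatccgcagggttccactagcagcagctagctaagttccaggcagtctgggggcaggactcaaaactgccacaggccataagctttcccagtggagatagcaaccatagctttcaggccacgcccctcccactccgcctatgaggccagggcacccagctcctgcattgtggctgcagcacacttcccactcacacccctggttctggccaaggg
COL23A1, chr5:178590344-178590643, minus strand: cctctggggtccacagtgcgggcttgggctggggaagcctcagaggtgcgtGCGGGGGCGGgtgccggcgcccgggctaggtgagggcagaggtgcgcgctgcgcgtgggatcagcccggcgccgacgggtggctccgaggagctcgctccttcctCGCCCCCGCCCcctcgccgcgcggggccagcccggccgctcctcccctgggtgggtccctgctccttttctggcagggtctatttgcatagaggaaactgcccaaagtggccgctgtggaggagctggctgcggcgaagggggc
COL6A3, chr2:237414115-237414414, minus strand: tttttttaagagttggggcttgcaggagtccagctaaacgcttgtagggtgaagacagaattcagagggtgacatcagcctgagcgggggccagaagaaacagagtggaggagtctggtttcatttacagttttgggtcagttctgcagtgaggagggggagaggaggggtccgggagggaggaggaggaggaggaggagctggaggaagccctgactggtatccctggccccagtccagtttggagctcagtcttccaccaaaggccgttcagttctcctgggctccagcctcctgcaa

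The COL15A1 promoter was 76.0% G and C, with 45 CpG dinucleotides and 1 GC box. That of COL23A1 was 73.3% G and C, with 28 CpG, 2 GC boxes and 2 matches to the WT1 or EGR1 core. The promoters of COL21A1 (58.3%) and COL6A3 (56.3%) held 4 CpG each and no match to any of the 5 motifs. Among all 35116 promoters of the table, 45% held a GC box, 9.43% the WT1 or EGR1 core, 10.3% the GATA site, 7.71% the AP-1 site and 11.5% the TATA box. Among the 30 promoters of analysed collagen genes the shares were 60%, 13.3%, 6.67%, 0% and 13.3%. A match describes the letters and is no evidence of binding.

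In B-K562 cells the collagen genes were mostly lower than in V-K562 cells. Of 28 tested, 12 fell (42.9%, against 14.1% of all genes tested) and 1 rose, COL14A1 (3.57%, against 6.46%). Without the fold criterion 16 were lower (37.2% of all genes) and 6 higher (38.6%). The median log2 fold change was -0.72 over the 28 genes and 0.01 over all genes. In these bulk samples, fewer cells that make a transcript and less of it per cell cannot be told apart. In G-K562 cells the picture was mixed, with 7 of 29 genes falling (24.1%, against 10.3% of all genes) and 6 rising (20.7%, against 8.81%), and a median of 0.01 against 0.0. Between the BASP1 lines, 7 collagen genes were higher in G-K562 (24.1%, against 17.4%) and 6 lower (20.7%, against 12.5%), with a median of 0.37 against -0.02. The libraries of the lines compared did not overlap for 20 of 28, 22 of 29 and 20 of 29 genes, where the shares over all genes were 77.8%, 70.2% and 81%. The comparisons with V-K562 share its libraries, so their results are given side by side and are not independent. With a pseudocount of 10 in place of 1, 7 genes fell in B-K562 cells. Among the falls in B-K562, COL5A3, COL8A2, COL6A6 and COL16A1 passed the value filter through V-K562, so they could hardly be called higher. The same holds in G-K562 for COL8A2, COL5A3, COL21A1, COL25A1 and COL28A1. With at least 10 required in every library, 8 genes fell in B-K562 and 2 in G-K562. The shares of all genes under that filter were not computed.

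**Figure D1:**
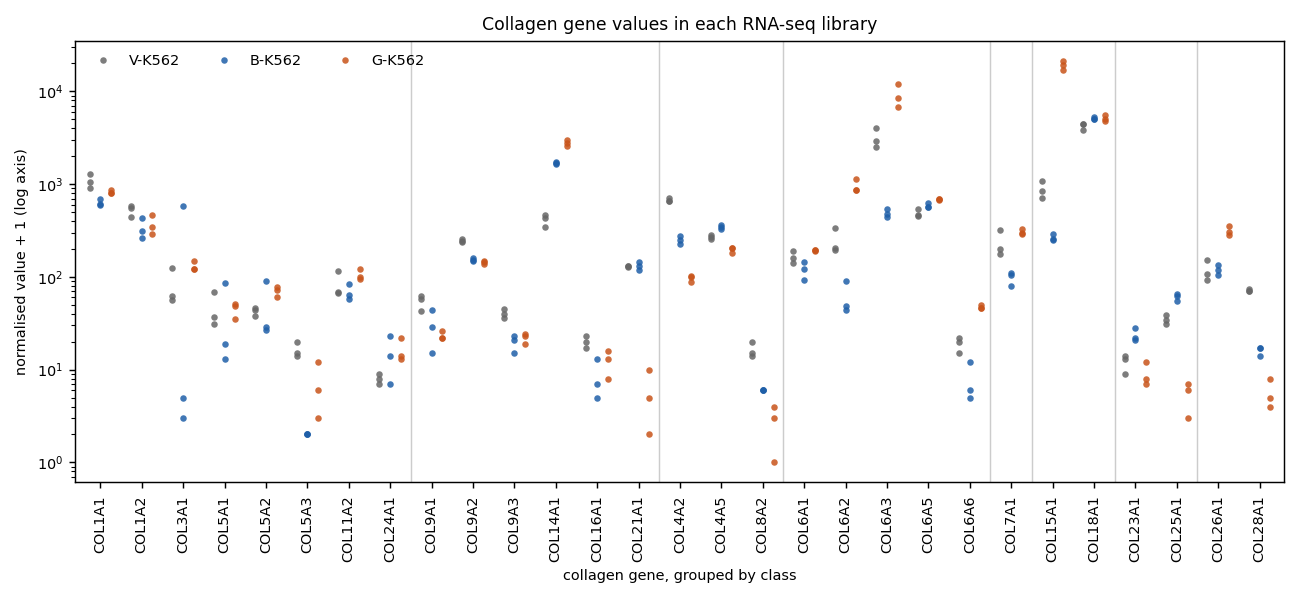
Normalised value + 1 (log axis) of the 29 analysed collagen genes in each RNA-seq library, 3 points per line, with thin lines between the collagen classes. COL15A1 reached 16913 to 21372 in G-K562, and COL3A1 had 1 B-K562 library at 575 and 2 at 4 and 2.

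The summed value of all 44 collagen genes was 11755, 13278 and 15172 in V-K562, 11746, 10667 and 10575 in B-K562 and 40796, 35843 and 45824 in G-K562. The G-K562 libraries thus held the highest sums, with no overlap. COL18A1 made up 31.5% of the sum in V-K562 and 46.5% in B-K562, while COL15A1 made up 6.51% in V-K562, 2.41% with wtBASP1 and 47.1% with BASP1-G2A. Per kilobase of exon, the highest levels in V-K562 were those of COL18A1 (621), COL6A3 (291) and COL1A1 (182). In B-K562 they were those of COL18A1 (752), COL14A1 (200) and COL1A1 (106).

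The multiplexins, basement membrane collagens whose helix is broken by many interruptions, held the largest rise. COL15A1, which anchors basement membranes to the matrix beneath (Entrez 1306, chromosome 9, 98943348 to 99070792, GRCh38), was at 706, 834 and 1077 in V-K562, 249, 256 and 291 in B-K562 and 19368, 16913 and 21372 in G-K562. Each line lay apart from the others. COL15A1 fell in B-K562 cells (log2 fold change -1.69, SE 0.12, adjusted p = 2.9e-08) and rose in G-K562 cells (4.45, SE 0.13, adjusted p = 3.7e-10), a mean 21.65 times as high as in V-K562. COL18A1, the source of the antiangiogenic fragment endostatin, had values of 3842, 4445 and 4397 in V-K562, 5016, 5292 and 5041 in B-K562 and 5549, 5016 and 4743 in G-K562. It was higher than in V-K562 by less than 2-fold in B-K562 (0.28, SE 0.06, adjusted p = 0.0006) and in G-K562 (0.25, SE 0.08, adjusted p = 0.013). The COL18A1 difference between the BASP1 lines was -0.03 (SE 0.07), within the spread of the libraries.

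Type VI collagen forms beaded microfilaments around cells from 3 chains, of which the third is the alpha3 chain or one of its relatives. COL6A3 (Entrez 1293, chromosome 2, 237324012 to 237414370) stood at 2496, 2903 and 4073 in V-K562, at 545, 445 and 470 in B-K562 and at 8463, 6861 and 12059 in G-K562. COL6A2 (Entrez 1292, chromosome 21, 46097606 to 46132849) had 203, 194 and 336 in V-K562, 89, 43 and 48 in B-K562 and 870, 863 and 1136 in G-K562. COL6A6, an alternative to the alpha3 chain, had 21, 14 and 19, then 11, 4 and 5, then 49, 45 and 45. For each of these 3 genes B-K562 was lowest and G-K562 highest, with no overlap. All 3 fell in the B-K562 line, COL6A3 with a log2 fold change of -2.67 (SE 0.13, adjusted p = 8.8e-10), COL6A2 with -2.04 (SE 0.25, adjusted p = 5.6e-06) and COL6A6 with -1.40 (SE 0.38, adjusted p = 0.0045). In G-K562 cells COL6A2 rose by 1.97 (SE 0.19, adjusted p = 2.6e-06), COL6A3 by 1.5 (SE 0.20, adjusted p = 3.7e-05) and COL6A6 by 1.29 (SE 0.22, adjusted p = 0.00034). With a pseudocount of 10, COL6A6 was under 2-fold in both lines, with -0.76 in B-K562 and 0.98 in G-K562.

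The other chains of type VI moved less. COL6A1, the partner of the alpha2 chain and its neighbour on chromosome 21 (45981749 to 46005049), had 158, 139 and 188 in V-K562, 144, 121 and 92 in B-K562 and 191, 192 and 194 in G-K562. Its difference from V-K562 was -0.45 in B-K562 (SE 0.16, adjusted p = 0.021, less than 2-fold) and 0.23 in G-K562 (SE 0.13, adjusted p = 0.12). COL6A5, a further relative of the alpha3 chain, had 452, 540 and 466 in V-K562, 570, 569 and 628 in B-K562 and 680, 688 and 696 in G-K562. COL6A5 was higher than in V-K562 in both BASP1 lines by less than 2-fold, by 0.28 in B-K562 (SE 0.08) and 0.48 in G-K562 (SE 0.08).

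Among the FACIT collagens, which decorate the surface of fibrils, COL14A1 rose in both BASP1 lines. COL14A1 (Entrez 7373, chromosome 8, 120125108 to 120373573), which regulates fibril growth, had 341, 463 and 435 in V-K562, 1692, 1645 and 1726 in B-K562 and 3024, 2546 and 2756 in G-K562. The log2 fold change was 2.04 in B-K562 (SE 0.09, adjusted p = 3.6e-10) and 2.73 in G-K562 (SE 0.11, adjusted p = 3.2e-09). It was the only collagen gene that rose in B-K562. COL21A1 (Entrez 81578, chromosome 6, 56056590 to 56394122) had 127, 130 and 129 in V-K562, 130, 117 and 142 in B-K562 and 4, 9 and 1 in G-K562. V-K562 and B-K562 overlapped (log2 fold change 0.01, SE 0.11), and G-K562 lay far below both. COL21A1 fell in G-K562 (log2 fold change -4.83, SE 0.45, adjusted p = 2.5e-06), and its mean was 28.07 times lower than in V-K562.

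Type IX collagen of cartilage, a FACIT of 3 chains, was lower in both BASP1 lines. COL9A1 had 61, 42 and 57 in V-K562, 14, 43 and 28 in B-K562 and 21, 21 and 25 in G-K562. COL9A2 had 237, 242 and 254, then 157, 149 and 150, then 147, 136 and 143. COL9A3 had 39, 44 and 35, then 22, 20 and 14, then 23, 18 and 22. The COL9A1 libraries of V-K562 and B-K562 overlapped at 42 and 43, and its fall in B-K562 was at the 2-fold limit (-1.0, SE 0.32, adjusted p = 0.011). It was under the limit without V-K562 replicate 1 (-0.90), V-K562 replicate 3 (-0.95) or B-K562 replicate 1 (-0.59). COL9A3 fell in B-K562 (-1.05, SE 0.23, adjusted p = 0.001), though by less than 2-fold without V-K562 replicate 2 (-0.97) or B-K562 replicate 3 (-0.87), and COL9A1 fell in G-K562 (-1.24, SE 0.21, adjusted p = 0.00028). The remaining differences passed the p threshold at less than 2-fold, namely COL9A2 with -0.68 in B-K562 and -0.80 in G-K562 and COL9A3 with -0.91 in G-K562. COL16A1, a FACIT of skin and cartilage, had 19, 22 and 16 in V-K562, 12, 6 and 4 in B-K562 and 7, 12 and 15 in G-K562. COL16A1 fell in B-K562 (-1.37, SE 0.38, adjusted p = 0.0047) and had -0.74 in G-K562 (SE 0.32, adjusted p = 0.057).

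The network collagens of basement membranes were split. COL4A2, the alpha2 chain of type IV (Entrez 1284, chromosome 13, 110307284 to 110513027), had 658, 660 and 703 in V-K562, 275, 248 and 223 in B-K562 and 87, 102 and 98 in G-K562. It fell in both BASP1 lines, with -1.44 in B-K562 (SE 0.09, adjusted p = 3.8e-09) and -2.83 in G-K562 (SE 0.10, adjusted p = 1.1e-09). Its partner COL4A1, which starts beside it on the opposite strand, had only 17, 1 and 9 in V-K562. Per kilobase of exon this was 0.577 for COL4A1 and 107.546 for COL4A2. COL4A2-AS1 lies antisense within COL4A2. The library kit keeps the strand, but the sources used here do not say whether the counting did, so reads of the antisense gene may be included.

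COL4A5, the chain mutated in X-linked Alport syndrome, had 266, 280 and 258 in V-K562, 347, 331 and 365 in B-K562 and 206, 181 and 205 in G-K562. It was higher in B-K562 (0.37, SE 0.08, adjusted p = 0.00088) and lower in G-K562 (-0.46, SE 0.10, adjusted p = 0.0016), each by less than 2-fold and with no overlap. COL8A2, a short-chain collagen of the corneal endothelium, had 13, 14 and 19 in V-K562, 5 in each B-K562 library and 3, 2 and 0 in G-K562. COL8A2 fell in B-K562 (-1.43, SE 0.34, adjusted p = 0.0017) and in G-K562 (-2.84, SE 0.53, adjusted p = 0.00055), at values where a few reads decide. COL7A1, which forms the anchoring fibrils below the epidermis, had 175, 200 and 317 in V-K562, 79, 104 and 109 in B-K562 and 290, 324 and 297 in G-K562. COL7A1 fell in B-K562 (-1.20, SE 0.19, adjusted p = 6.3e-05), with -0.95 without V-K562 replicate 3, and had 0.41 in G-K562 (SE 0.18, adjusted p = 0.062).

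The major fibrillar collagens of type I, the bulk of bone and skin, were lower in both BASP1 lines by less than 2-fold. COL1A1 had 909, 1055 and 1271 in V-K562, 685, 589 and 610 in B-K562 and 805, 859 and 803 in G-K562. COL1A2 had 550, 579 and 441, then 429, 309 and 262, then 343, 288 and 467. The differences of COL1A1 were -0.77 in B-K562 (SE 0.10, adjusted p = 1.1e-05) and -0.40 in G-K562 (SE 0.11, adjusted p = 0.0056). Those of COL1A2 were -0.67 in B-K562 (SE 0.15, adjusted p = 0.0011) and -0.56 in G-K562 (SE 0.16, adjusted p = 0.0087). The G-K562 libraries overlapped V-K562 for COL1A2 and not for COL1A1.

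Types III and V, fibrillar collagens that join type I in fibrils, turned on B-K562 replicate 1. COL3A1 had 55, 61 and 124 in V-K562, 575, 4 and 2 in B-K562 and 121, 146 and 121 in G-K562. COL5A1 had 30, 36 and 67, then 85, 18 and 12, then 48, 50 and 34, and COL5A2 had 45, 43 and 37, then 89, 26 and 28, then 60, 76 and 71. In all 3 genes replicate 1 lay above every V-K562 library and the other B-K562 libraries below every one. With all libraries none of the 3 passed in B-K562, where COL3A1 had -1.88 (SE 1.36, adjusted p = 0.22), COL5A1 -0.63 (SE 0.53, adjusted p = 0.30) and COL5A2 -0.04 (SE 0.36, adjusted p = 0.92). Without replicate 1, COL3A1 had -4.29 (SE 0.37, adjusted p = 9.3e-07), COL5A1 -1.44 (SE 0.34, adjusted p = 0.0022) and COL5A2 -0.60 (SE 0.21, adjusted p = 0.023, less than 2-fold). In G-K562 cells COL3A1 was higher by 0.76 (SE 0.26, adjusted p = 0.021) and COL5A2 by 0.69 (SE 0.17, adjusted p = 0.0038), both less than 2-fold, and COL5A1 had 0.01 (SE 0.28). Without V-K562 replicate 3, where COL3A1 was highest, its G-K562 difference was 1.13.

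Replicate 1 of B-K562 stood apart in collagen and matrix transcripts more widely. Of the 44 collagen genes, 25 were highest there among the B-K562 libraries, 5 in replicate 2 and 8 in replicate 3. The share of all genes highest in replicate 1 was not computed, and some differences were small, such as COL9A2 with 157, 149 and 150. That this library held extra collagen reads was known beforehand. It held 32 genes that were at 20 or more and at least 5 times both other B-K562 libraries, and 5 of these were collagens, COL3A1, COL12A1, COL4A1, COL11A1 and COL2A1. COL12A1 had 67, 1 and 3, COL4A1 had 60, 0 and 1, COL11A1 had 28, 0 and 0, and COL2A1 had 22, 2 and 2. Others of the 32 were LUM with 61, 1 and 3 and POSTN with 22, 1 and 1, which are among the 18 fibroblast markers. V-K562 replicate 1 held 44 such genes, among them KRT5 with 143 against 0 and 0, but no collagen, and each of the remaining libraries held at most 1. The summed fibroblast markers were 450 in B-K562 replicate 1 and 246 and 243 in the others. The list was mixed, since DCN had 64, 13 and 16 in B-K562, while TAGLN had 116, 120 and 101 and TWIST1 9, 13 and 17. POSTN was also at 14, 15 and 23 in G-K562. Where the extra RNA of B-K562 replicate 1 came from was not tested. Without replicate 1, 13 collagen genes fell in B-K562 compared with V-K562, and 10 were higher in G-K562 when set against B-K562. The shares of all genes called without replicate 1 were not computed, so these counts have no background to be read against.

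**Figure D2:**
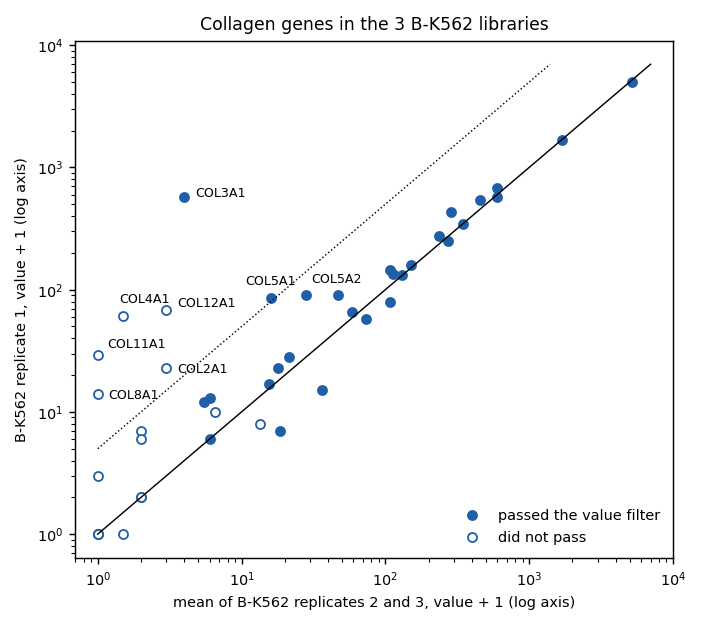
Value + 1 of each of the 44 collagen genes in B-K562 replicate 1 (vertical) against the mean of replicates 2 and 3 (horizontal), both on log axes, with lines of equality (solid) and of a 5-fold excess (dotted). COL3A1 stood highest above the dotted line, at 575 against 4 and 2, while genes of high value lay on the solid line.

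The minor fibrillar chains were at low values. COL5A3, a rarer chain of type V, had 14, 13 and 19 in V-K562, 1 in each B-K562 library and 11, 5 and 2 in G-K562. It fell in B-K562 (log2 fold change -3.01, SE 0.43, adjusted p = 2.5e-05) and in G-K562 (-1.48, SE 0.47, adjusted p = 0.015), and the latter was not called without V-K562 replicate 3 (-1.32, adjusted p = 0.059) or G-K562 replicate 3 (-0.98, adjusted p = 0.050). COL11A2, a chain of cartilage type XI, had 66, 67 and 116 in V-K562, 57, 82 and 63 in B-K562 and 94, 122 and 98 in G-K562. V-K562 overlapped both other lines, with differences of -0.26 in B-K562 (SE 0.22) and 0.35 in G-K562 (SE 0.21), while B-K562 and G-K562 did not overlap. COL24A1, found in developing bone, had 8, 7 and 6 in V-K562, 6, 13 and 22 in B-K562 and 13, 12 and 21 in G-K562. Its G-K562 difference of 1.0 (SE 0.33, adjusted p = 0.018) lay just under the 2-fold limit, and passed it without V-K562 replicate 1 or 2 or G-K562 replicate 1 or 2, with values up to 1.14. COL24A1 passed the value filter through G-K562 in that comparison, so it could hardly be called lower.

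Of the transmembrane collagens that passed the filter, COL25A1 fell in G-K562 cells and COL23A1 was not called against V-K562. COL25A1, the precursor of a peptide found in amyloid plaques (Entrez 84570, chromosome 4, 108808725 to 109302752), had 38, 30 and 33 in V-K562, 65, 54 and 61 in B-K562 and 6, 5 and 2 in G-K562. COL25A1 fell in G-K562 (-2.80, SE 0.35, adjusted p = 2.8e-05) and was higher in B-K562 by less than 2-fold (0.82, SE 0.18, adjusted p = 0.00085). COL23A1 had 8, 13 and 12 in V-K562, 27, 21 and 20 in B-K562 and 6, 11 and 7 in G-K562. Its difference of 0.99 in B-K562 (SE 0.29, adjusted p = 0.0065) lay just under the limit and passed it without V-K562 replicate 2 or 3 or B-K562 replicate 2 or 3, with 1.04 to 1.12, and in G-K562 it was -0.46 (SE 0.35, adjusted p = 0.26). The V-K562 libraries alone did not reach the value filter for COL23A1, which passed against B-K562 through the B-K562 libraries.

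Of the last pair, COL28A1, a collagen with von Willebrand factor A domains (Entrez 340267, chromosome 7, 7356871 to 7537277), had 69, 73 and 70 in V-K562, 16, 16 and 13 in B-K562 and 4, 7 and 3 in G-K562. It fell in both lines, with -2.17 in B-K562 (SE 0.19, adjusted p = 2.3e-07) and -3.74 in G-K562 (SE 0.29, adjusted p = 5.1e-07). COL26A1, first described in testis and ovary, had 92, 107 and 151 in V-K562, 134, 119 and 105 in B-K562 and 280, 302 and 356 in G-K562. COL26A1 rose in G-K562 (1.41, SE 0.17, adjusted p = 1.9e-05), while V-K562 and B-K562 overlapped (0.06, SE 0.17).

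**Figure D3:**
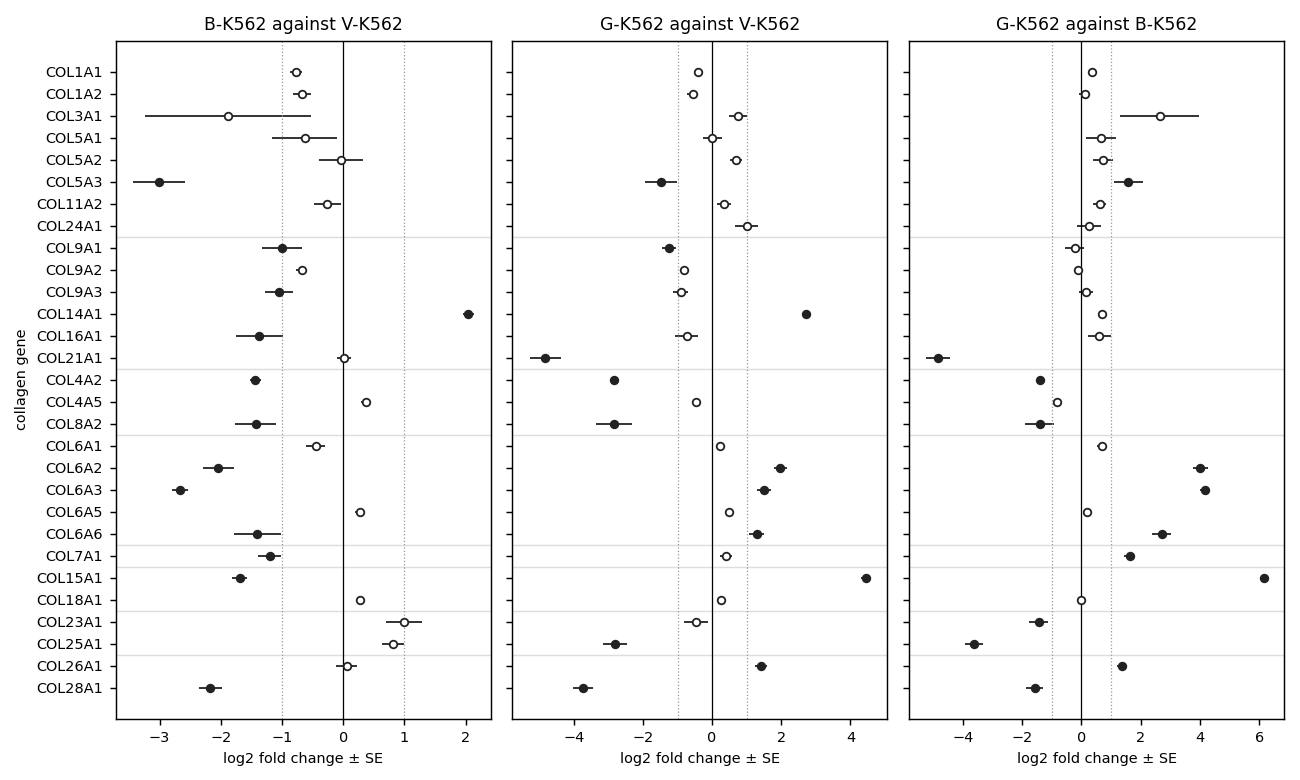
Log2 fold change of each analysed collagen gene with its standard error in the 3 comparisons. Filled points passed an adjusted p of at most 0.05 and at least 2-fold (dotted lines mark 2-fold), and COL15A1 had -1.69 for B-K562 and 4.45 for G-K562, each against V-K562.

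The BASP1 forms were also compared directly in a fit of all 9 libraries, with B-K562 values brought to the scale of the G-K562 table. COL15A1 was higher in G-K562 by 6.15 (SE 0.12, adjusted p = 4.5e-14), a mean 71.22 times as high. COL6A3 was higher by 4.17 (SE 0.18, adjusted p = 5.9e-11), COL6A2 by 4.01 (SE 0.25, adjusted p = 1.9e-09) and COL6A6 by 2.71 (SE 0.32, adjusted p = 2.3e-06). COL7A1 (1.62), COL5A3 (1.57) and COL26A1 (1.36) were the other 3 that were higher. Lower in G-K562 were COL21A1 (-4.83), COL25A1 (-3.62), COL28A1 (-1.58), COL23A1 (-1.45), COL8A2 (-1.41) and COL4A2 (-1.39). The calls of COL8A2 and COL5A3 were lost without G-K562 replicate 3 (-0.81) and G-K562 replicate 1 (1.07), respectively. Both genes were low in the lines compared and passed the value filter through V-K562. In B-K562 and G-K562 the means were 5.08 and 1.67 for COL8A2 and 1.02 and 6.0 for COL5A3. Over all alternatives the differences nearest to 0 were -0.38 for COL8A2 and 0.5 for COL5A3. COL3A1 had 2.64 (SE 1.33, adjusted p = 0.083) with all libraries and 5.05 (SE 0.33, adjusted p = 1.6e-08) without B-K562 replicate 1. COL5A1 went from 0.66 to 1.48 and COL5A2 from 0.73 to 1.29 in the same way. COL1A1, COL6A1, COL11A2, COL14A1 and COL6A5 were higher in G-K562, and COL4A5 was lower, with an adjusted p of at most 0.05 but less than 2-fold. Without B-K562 replicate 1, COL11A2 (0.50, adjusted p = 0.072) and COL6A5 (0.18, adjusted p = 0.088) no longer passed the p threshold. COL9A1 (-0.64, adjusted p = 0.032) and COL16A1 (0.98, adjusted p = 0.029) then passed it, both at less than 2-fold.

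Genes of collagen assembly were read from lists by role that were chosen with earlier results of these data known. Of 18 tested enzymes and chaperones that modify and fold collagen chains, 5 fell and 0 rose in B-K562, 1 fell and 2 rose in G-K562, and between the BASP1 lines 0 were lower and 6 higher in G-K562. The shares of all genes that fell and rose, against which this and the next 3 lists are to be read, were 14.1% and 6.46% in B-K562, 10.3% and 8.81% in G-K562 and 12.5% and 17.4% between the BASP1 lines, so 1 and 2 of 18 in G-K562 are near the background. P4HA1, the prolyl hydroxylase subunit that stabilises the helix, had 9192, 10329 and 9697 in V-K562, 1187, 1197 and 1215 in B-K562 and 1843, 1996 and 1753 in G-K562, and fell in both (-3.02 and -2.41). SERPINH1, the collagen chaperone HSP47, had 5415, 5531 and 6638, then 4513, 4861 and 4953, then 15800, 15970 and 15244, and rose in G-K562 by 1.40. COLGALT2, a collagen galactosyltransferase, fell in B-K562 (-1.19) and rose in G-K562 (1.73). Over the 18 genes the median change was -0.58 for B-K562 and 0.14 for G-K562, against 0.01 and 0.0 over all genes.

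Of 16 genes of procollagen export, cleavage and cross-linking, 7 fell and 0 rose in B-K562, and 4 fell and 1 rose in G-K562, with medians of -0.90 and -0.18. The cross-linking enzyme LOXL1 had 58, 42 and 58 in V-K562, 12, 0 and 2 in B-K562 and 11, 7 and 10 in G-K562, and fell in both (-3.97 and -2.42). LOXL2 of the same family had 83, 89 and 70, then 60, 26 and 22, then 516, 430 and 745, with a fall in B-K562 (-1.27) and a rise in G-K562 (2.73). SPARC, a collagen-binding chaperone, had 4505, 5060 and 5125 in V-K562, 2552, 2558 and 2489 in B-K562 and 294, 328 and 272 in G-K562, and fell in G-K562 (-4.06). Of collagen receptors, 2 of 9 fell and 2 rose in B-K562, and 2 of 11 fell and 4 rose in G-K562, with medians of -0.08 and 0.30. OSCAR, a receptor of osteoclasts, had 92, 73 and 147 in V-K562, 4, 2 and 7 in B-K562 and 898, 758 and 1035 in G-K562. LAIR1, an inhibitory receptor of leukocytes, was at 4, 8 and 6 in V-K562 and rose in G-K562 to 165, 108 and 206. LAIR1 passed the value filter through G-K562 alone, so it could not be called lower there, and it was not tested in B-K562. Of 18 matrix partners, 10 fell and 1 rose in B-K562, and 1 fell and 2 rose in G-K562, the latter near the background, with medians of -1.29 and -0.15. FN1 (fibronectin) rose in G-K562, with 1200, 1741 and 2164 in V-K562 and 11612, 13839 and 15510 in G-K562.

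Chromatin accessibility was examined in the ATAC-seq regions within 5 kb of the collagen genes, to show where it changed beside the transcripts. The value of a region is the highest summit pileup, in tags, of a peak called in a library. The peak lists held 47111 to 55570 peaks per library, and their mean pileup was 40.3 to 40.9 for V-K562, 47.4 to 47.8 for B-K562 and 50.7 to 52.2 for G-K562. A library without a called peak was set to 17 tags, the 5th percentile of summits. Its true pileup is unknown, so changes that rest on such libraries give a direction of calling and not a measured size. There were 146 regions at 28 of the 29 genes, 125 of them overlapping the gene, and COL24A1 had none. Only 13 regions, at 11 genes, lay within 1 kb of the gene's start. COL6A3 had 1 region, with a peak in a single V-K562 library, and no region of COL14A1, COL26A1 or COL28A1 was called.

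Of 76 regions tested in B-K562, 4 closed (5.26%, against 6.15% of all regions) and 0 opened (against 1.53%), while at an adjusted p of at most 0.05 alone 5 had a higher value (6.58%, against 8.58%) and 9 a lower one (11.8%, against 16.6%). Of 85 tested in G-K562, 21 closed (24.7%, against 13.1%) and 4 opened (4.71%, against 2.87%). Of 93 tested between the BASP1 lines, 17 were closed in G-K562 compared with B-K562 (18.3%, against 8.6%) and 4 opened (4.3%, against 4.28%). In the comparisons with V-K562, a region with peaks in 1 line alone passed the filter through that line. It could be called in only 1 direction, and regions of this kind were among those called. With a peak required in every library, 4 closed and 0 opened in G-K562 against V-K562. The shares of all regions under that filter were not computed. The scaling between libraries also bears on the numbers of regions called. When libraries were compared at their equal tag numbers without further scaling, which moved the median log2 fold change of all regions by 0.12 in B-K562, 0.28 in G-K562 and 0.12 between them, 2 closed and 3 opened in B-K562, 8 closed and 6 opened in G-K562, and 13 and 5 between the BASP1 lines. The shares of all regions called under this scaling were not computed. Whether the excess of closed regions in G-K562 holds under it is therefore not known. The regions called in at least 1 comparison numbered 29 in 13 genes, and 22 of them had their summit in an intron of the collagen gene, 3 in an exon and 4 outside its model, where the numbers over all 146 regions were 113, 9 and 24.

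COL15A1 had a region at its start (chromosome 9, 98943578 to 98944101), which holds the whole promoter printed above. Its summit pileup was 24 and 26 in V-K562 replicates 2 and 3, with no peak in replicate 1, then 24, 19 and 33 in B-K562 and 47, 62 and 80 in G-K562. It opened in G-K562 compared with V-K562 (log2 fold change 1.17, SE 0.28, adjusted p = 0.013) and with B-K562 (1.07, SE 0.29, adjusted p = 0.022). The first call was lost without V-K562 replicate 1 (0.94), G-K562 replicate 2 (adjusted p = 0.050) or G-K562 replicate 3 (adjusted p = 0.056), and the second without B-K562 replicate 1 or 2 or G-K562 replicate 2 or 3 (adjusted p = 0.068 to 0.089). An intronic region of COL15A1 (99012950 to 99013327) had 37, 27 and 43 in V-K562, no peak in B-K562 and 42, 46 and 57 in G-K562. It closed in B-K562 (-1.08, SE 0.21, adjusted p = 0.0088) and was opened in G-K562 compared with B-K562 (1.25, SE 0.21, adjusted p = 0.0018), and without V-K562 replicate 3 the first was -0.93. The 8 other tested regions of COL15A1 had no call, and the start region did not differ beyond the spread between V-K562 and B-K562 (0.05, SE 0.25), where the COL15A1 transcript fell.

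COL21A1 had a region at its start (chromosome 6, 56393710 to 56394410), with 31, 46 and 60 in V-K562, 43, 54 and 41 in B-K562 and a peak of 14 in only 1 G-K562 library. It closed in G-K562 (-1.5, SE 0.24, adjusted p = 0.0025), as did an intronic region at 56387568 to 56388062 with 40, 42 and 28 in V-K562, 29, 21 and 26 in B-K562 and no peak in G-K562 (-1.22, SE 0.19, adjusted p = 0.0022). The COL21A1 transcript also fell in G-K562.

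COL25A1 and COL4A2 lost accessibility in G-K562 within their introns. In COL25A1, 5 regions closed, and the one with the highest V-K562 pileup (chromosome 4, 109174191 to 109174665) had 71, 65 and 86 in V-K562, 80, 65 and 80 in B-K562 and no peak in G-K562 (-2.22, SE 0.18, adjusted p = 0.00024). The next (109027006 to 109027579) had 61, 75 and 55, then 80, 88 and 70, and no peak in G-K562 (-2.01, SE 0.18, adjusted p = 0.00032). The others had -1.65, -1.05 and -1.02, and the second of these was -0.94 without V-K562 replicate 2. In COL4A2, 4 of 6 tested regions closed in G-K562. One of them (chromosome 13, 110471761 to 110472184), with a peak in every library, had 119, 95 and 102 in V-K562, 85, 86 and 105 in B-K562 and 53, 50 and 53 in G-K562 (-1.34, SE 0.13, adjusted p = 0.00042). It was -1.0 and under the limit with equal tags alone. Another (110507207 to 110507700), which overlaps COL4A2-AS1, had 75, 78 and 53 in V-K562, 128, 93 and 85 in B-K562 and no peak in G-K562 (-2.11, SE 0.20, adjusted p = 0.00037). A further one (110509551 to 110509886) had 38, 43 and 46, then 74, 84 and 79, and no peak in G-K562 (-1.43, SE 0.16, adjusted p = 0.00052). The region at 110510113 to 110510625 (-1.17, SE 0.36, adjusted p = 0.032) lost its call without V-K562 replicate 1 or 2 or G-K562 replicate 1 or 2 (adjusted p = 0.096 to 0.12). Of 7 COL4A2 regions tested in B-K562, 0 closed there, where the COL4A2 transcript also fell.

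The 151 bases centred on the summit are shown for a closed region of COL25A1 and one of COL4A2 that had no peak in G-K562 and for the intronic region of COL15A1, from GRCh38 and with the same motifs in capitals.
COL25A1 intron, chr4:109174389-109174539, plus strand: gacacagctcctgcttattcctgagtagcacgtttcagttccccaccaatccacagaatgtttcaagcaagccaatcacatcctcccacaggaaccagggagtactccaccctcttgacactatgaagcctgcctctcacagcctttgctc
COL4A2 intron, chr13:110507349-110507499, plus strand: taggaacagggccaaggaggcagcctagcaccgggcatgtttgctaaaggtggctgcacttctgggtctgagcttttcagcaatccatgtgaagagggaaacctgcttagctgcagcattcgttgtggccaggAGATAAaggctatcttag
COL15A1 intron, chr9:99013045-99013195, plus strand: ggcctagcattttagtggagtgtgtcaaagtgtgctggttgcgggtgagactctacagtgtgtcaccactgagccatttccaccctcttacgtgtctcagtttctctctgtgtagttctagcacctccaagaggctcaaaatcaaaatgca

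The COL4A2 window held 1 GATA match and the others no match to the 5 motifs. Of the windows at all 85549 region summits, 15.6% held the GATA site, 14.9% the AP-1 site and 17% a GC box.

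**Figure D4:**
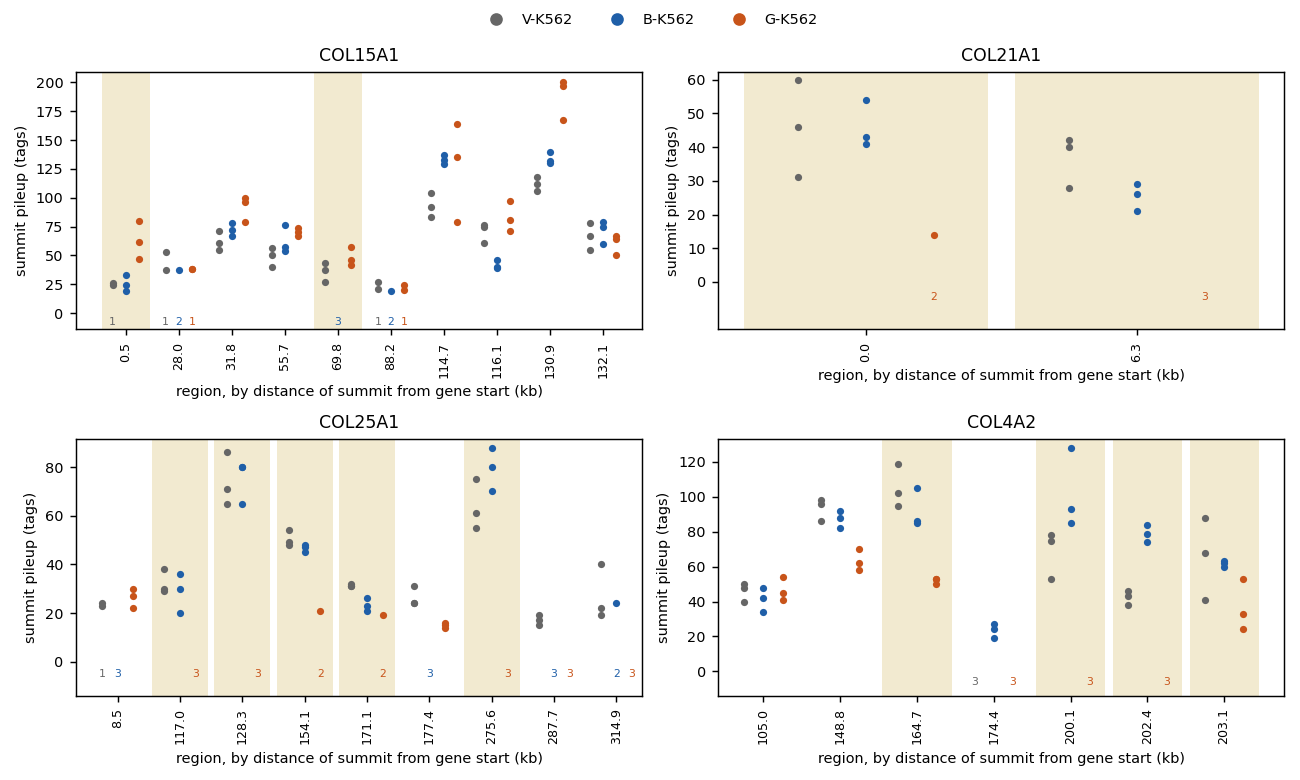
Summit pileup in tags of each tested ATAC-seq region near COL15A1, COL21A1, COL25A1 and COL4A2, ordered by the distance of its summit from the gene's start, with 1 point per library that had a peak. A coloured number near the axis gives how many libraries of that line had none, and shading marks regions called in at least 1 comparison, such as the COL15A1 start with 47 to 80 in G-K562.

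Other start regions are given beside their transcripts. The COL23A1 start region (chromosome 5, 178589941 to 178590913), with the WT1 or EGR1 matches, had 21 and 23 in V-K562 with no peak in replicate 3, then 45, 37 and 52 in B-K562 and 66, 58 and 49 in G-K562. It opened in G-K562 (1.17, SE 0.22, adjusted p = 0.005; 1.0 and under the limit without V-K562 replicate 3), where the COL23A1 transcript had -0.46, and had 0.97 in B-K562 (SE 0.22, adjusted p = 0.017), where the transcript had 0.99. In B-K562 it passed the limit without V-K562 replicate 1 or 2 or B-K562 replicate 2 (1.02 to 1.09). Downstream of COL23A1 2 regions opened in G-K562. That at 178236694 to 178237015 had no peak in V-K562 or B-K562 and 71, 55 and 64 in G-K562 (1.66, SE 0.17, adjusted p = 0.00042). It passed the filter through G-K562 alone, so it could only be called opened. That at 178232147 to 178233010, at the start of PHYKPL (1.25, SE 0.31, adjusted p = 0.016), lost its call without V-K562 replicate 1 (0.91), G-K562 replicate 2 (adjusted p = 0.067) or G-K562 replicate 3 (adjusted p = 0.068). In COL23A1 introns 2 regions closed in G-K562, at 178417340 (-1.04) and 178555013 (-1.05), both under 2-fold without V-K562 replicate 1 (-0.96 and -0.85). A further 2 intronic regions were closed in G-K562 compared with B-K562 and not called against V-K562. That at 178449047 to 178449564 had 151, 179 and 159 in V-K562, 231, 181 and 215 in B-K562 and 104, 133 and 108 in G-K562 (-1.07, SE 0.13, adjusted p = 0.00022). That at 178535171 to 178535600 (-1.02, SE 0.27, adjusted p = 0.017) lost its call without B-K562 replicate 1 (-0.79), G-K562 replicate 1 (-0.93) or G-K562 replicate 3 (adjusted p = 0.056). The COL1A1 region near its start (chromosome 17, 50200142 to 50200940) had 53, 59 and 60 in V-K562, 49, 53 and 62 in B-K562 and 129, 111 and 120 in G-K562. Its difference in G-K562 was 0.71 (SE 0.11, adjusted p = 0.0024), less than 2-fold, and 1.05 with equal tags as the only normalization, while the COL1A1 transcript was lower there. The COL6A2 start region (chromosome 21, 46097968 to 46098304) had no peak in V-K562, 31 and 22 in B-K562 replicates 1 and 3 and 24, 32 and 36 in G-K562, where its change was 0.63 (SE 0.16, adjusted p = 0.017), less than 2-fold, and the COL6A2 transcript rose. As V-K562 is at the floor, that value depends on it, and with the floor at the lowest summit pileup it was 1.34 (adjusted p = 0.0021). The COL1A2 start region had 30, 30 and 32 in V-K562, 14, 21 and 20 in B-K562 and 20, 26 and 34 in G-K562, with -0.76 in B-K562 (SE 0.16, adjusted p = 0.012, less than 2-fold), where the transcript was lower too. A COL18A1 start region (chromosome 21, 45404657 to 45405230) had no peak in V-K562, a peak of 28 in B-K562 replicate 1 alone and 39, 36 and 31 in G-K562 (0.84, SE 0.14, adjusted p = 0.0029, less than 2-fold). Its V-K562 value is the floor too, and with the lower floor the COL18A1 difference was 1.55. The start regions of COL4A5, COL6A1 and COL7A1 were not called where tested, and that of COL6A5 had peaks in only 2 V-K562 libraries and was not tested.

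A region downstream of COL7A1 (chromosome 3, 48561029 to 48561347), inside the model of PFKFB4, had 75, 90 and 90 in V-K562, no peak in B-K562 and 87, 65 and 82 in G-K562. It closed in B-K562 (-2.33, SE 0.19, adjusted p = 0.001) and was opened in G-K562 compared with B-K562 (1.93, SE 0.15, adjusted p = 2e-05). The COL7A1 transcript also fell in B-K562, and which gene the region belongs to was not tested. The other called regions lay in COL9A1, COL9A2, COL18A1, COL4A5, COL6A5 and COL6A6 and upstream of COL8A2, and each of those closed in G-K562. With 1 library left out, that of COL9A2 was under 2-fold in G-K562 without V-K562 replicate 2 or 3 or G-K562 replicate 2 or 3 (-0.88 to -0.99), that of COL4A5 without V-K562 replicate 1 (-0.99) or G-K562 replicate 3 (-0.91), and that of COL8A2 without V-K562 replicate 3 (-0.96). Those of COL9A2 (-1.0) and COL6A6 (-1.05) also closed in B-K562, and both were under 2-fold there without V-K562 replicate 2 (-0.89 and -0.98), and COL9A2 also without V-K562 replicate 3 (-0.99). For COL6A6 (chromosome 3, 130654784 to 130655240) the pileups were 32, 39 and 33 in V-K562, 13 and 18 in 2 B-K562 libraries and no peak in G-K562, although its transcript rose in G-K562. In COL18A1 2 regions closed in G-K562, which overlap MIR6815 and SLC19A1, and in COL6A5 1 region closed. The COL18A1 and COL6A5 transcripts were higher in G-K562 by less than 2-fold.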

How the data were processed

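Both assays had 3 libraries per cell line. The authors mapped RNA-seq reads to GRCh38 with STAR, removed duplicates, counted unique reads on RefSeq genes with Subread, divided the counts by DESeq2 size factors and rounded them, so the deposited values, 1 table per BASP1 line with V-K562, are normalised counts treated here as a score and not as raw counts. The deposited gene length is the authors' merged exon length in bp. The spacing left by the rounding gave 28914432 to 37039975 reads on genes in the 4 libraries where it could be read (correlation with the model spacing above 0.5). In the other 5 it could not, and their depth is unknown. For ATAC-seq the authors mapped with BWA-MEM, sampled every library down to an equal tag number, used MACS2 on each, and the deposited signal is the pileup at each summit. Columns of the authors' own means, fold changes and p-values were not used.

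Genes with at least 10 in at least 3 libraries compared were tested with limma 3.58.1 (R 4.3.3) on log2(value + 1), using its trended prior and adjusting p over all tested genes by Benjamini-Hochberg. No count model was used, since these values are not raw counts. For G-K562 against B-K562, B-K562 values were multiplied by 1.017 and all 9 libraries were fitted together. Peaks were merged into 85549 regions with a mean length of 425.9 bp. Pileups were scaled by a trimmed mean, floored at 17 tags and tested likewise in regions with a peak in at least 3 libraries. Regions within 5 kb of a gene were assigned to it by the deposited exon coordinates. Both fits were tested on simulated data. Other steps used Python 3.11.15, numpy 2.4.6, pandas 2.3.3 and matplotlib 3.10.9.

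The collagen genes, the lists and the alternatives were chosen with earlier results of these data known. Every collagen gene that passed the filter is named with its values, the others by symbol, and of the other lists at most the 3 largest rises and falls per comparison. Regions named are those called or within 1 kb of a start. LUM, POSTN and KRT5 are named as fibroblast and epithelial markers high in the libraries that stood apart, and DCN, TAGLN and TWIST1 are named beside them. All were chosen after their values were seen. Lists of 8 epithelial and 7 endothelial markers were also summed, and held 5 and 2 tested genes in the comparisons with V-K562, of which 0 fell or rose in B-K562 and 1 endothelial gene rose in G-K562. That gene passed the value filter through G-K562 alone. In the fibroblast list 2 of 6 tested fell and 1 rose in B-K562, and 3 of 7 fell and 2 rose in G-K562. POSTN, 1 of these 2 rises, also passed the value filter through G-K562 alone. In the erythroleukemia list 0 of 11 fell and 1 rose in B-K562, and 6 of 11 fell and 0 rose in G-K562. Over all genes 14.1% fell and 6.46% rose in B-K562, and 10.3% fell and 8.81% rose in G-K562. Alternatives were other filters, pseudocounts, scalings and floors, no fold criterion, other distances to the gene, the replicate number as a block, and leaving out each library.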

Additional observations from a re-analysis of the deposited data

Results flagged for a closer look

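Compared with V-K562 cells, 4 collagen genes fell in B-K562 cells and rose in G-K562 cells. With a pseudocount of 10, COL6A6 was under 2-fold in both lines (-0.76 and 0.98). The log2 difference of G-K562 from B-K562 was 6.15 for COL15A1, 4.17 for COL6A3, 4.01 for COL6A2 and 2.71 for COL6A6. They were picked for these opposite changes, which share the V-K562 libraries, so a difference between the BASP1 lines follows from the choice and is given as a description.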

How the results depend on the processing

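Over 1095 alternative values of 86 RNA-seq results, 1038 kept direction and side of the threshold, 23 lost the call, 16 gained it and 18 changed sign. Over 1103 alternatives of 105 ATAC-seq results the numbers were 1007, 61, 18 and 17. Shares over all genes or regions were computed only for the reported fits, so most counts below have no such share beside them. For genes, the counts changed as follows. In B-K562 against V-K562, 7 fell with a pseudocount of 10 and 10 to 13 with 1 library left out, and 2 rose with a trimmed-mean rescaling, 6 without the fold criterion and 1 to 2 with 1 library left out. With 1 library left out the second was COL23A1, which passed without V-K562 replicate 2 or 3 or B-K562 replicate 2 or 3. In G-K562 against V-K562, 2 fell with at least 10 required in every library and 12 without the fold criterion, and 11 rose without it. In G-K562 against B-K562, 1 was lower with at least 10 in every library and 3 with a pseudocount of 10, and 12 were higher without the fold criterion. A filter on every library removes genes that fell to low values by its construction.

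For ATAC-seq regions in B-K562 against V-K562, 0 closed when every library had to have a peak, 2 with equal tags as the only normalization, 9 without the fold criterion and 2 to 4 with 1 library left out (2 without V-K562 replicate 2 or 3). Opened were 3 with equal tags, 2 with the floor at the lowest summit pileup, 5 without the fold criterion and 0 to 2 with 1 library left out. In G-K562 against V-K562, 4 closed with a peak in every library and 8 with equal tags, and opened were 0 with a peak in every library, 8 with the lower floor, 8 without the fold criterion, 2 of the regions that overlap the gene and 2 to 4 with 1 library left out (2 without V-K562 replicate 1 or G-K562 replicate 2 or 3). In G-K562 against B-K562, 6 closed with a peak in every library, and opened were 0 with a peak in every library, 8 with the lower floor, 9 without the fold criterion and 2 of those that overlap the gene.

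The sign changed for results whose reported log2 value lay between -0.23 and 0.25, and the cause was not tested. With equal totals COL21A1 in B-K562 was -0.02 and COL18A1 between the BASP1 lines 0.02. With 1 library left out, COL5A2 (-0.60 to 0.26), COL21A1 (-0.06 to 0.08) and COL26A1 (-0.10 to 0.26) crossed 0 in B-K562, COL5A1 (-0.22 to 0.35) in G-K562, and COL1A2 (-0.08 to 0.31), COL9A1 (-0.64 to 0.13), COL9A3 (-0.03 to 0.28), COL18A1 (-0.09 to 0.02) and COL24A1 (-0.20 to 0.66) between the BASP1 lines. With equal tags, the COL7A1 start region was 0.12 in B-K562 and 0.11 in G-K562, the COL21A1 start region 0.05 and a COL25A1 intronic region 0.02 in B-K562, and the COL6A1 start region 0.26 in G-K562. With 1 library left out, regions of COL4A2 (-0.47 to 0.06), COL7A1 (-0.19 to 0.18), COL9A1 (-0.18 to 0.20), COL15A1 (-0.16 to 0.22) and COL21A1 (-0.34 to 0.12) crossed 0 in B-K562, COL6A1 (-0.16 to 0.02) and COL15A1 (-0.09 to 0.24) in G-K562 and COL6A1 (-0.09 to 0.31) between the BASP1 lines.

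The labels number the replicates, but deviations of same-numbered libraries correlated between -0.097 and 0.145, so the numbers were not taken as pairs. With the replicate block, 12 genes fell and 1 rose in B-K562, 7 fell and 6 rose in G-K562, and 6 were lower and 7 higher between the BASP1 lines, and 16 in place of 17 regions closed between the BASP1 lines. For values under 10 the reads limit the precision, and for a region without a called peak the tags are unknown.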
